A study of Mus musculus with 10 samples.

Results

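The 10 genes described here are the cytosolic and mitochondrial heat-shock chaperones Hspa1a, Hspa1b, Hspa8, Hsph1, Dnajb1, Hsp90aa1, Hsp90ab1, Hspd1 and Hspe1, with Hsf1, the transcription factor that switches the heat-shock response on. They were chosen by symbol, for what their proteins do, with earlier results of these data known, from the 54532 genes of the deposited table. All 10 were found, all 10 passed the filter on low values and all 10 were tested. The 10 libraries, in 3 groups, are RNA-seq of mouse macrophages taken from the peritoneum, where they clear debris and microbes. These were wild-type mice labelled young (4 libraries, replicates A, B, C and E), wild-type mice labelled aged (3 libraries, replicates 3, 4 and 6) and mice labelled aged and Trem1-/-, with both copies of the gene of the activating myeloid receptor TREM1 deleted (3 libraries, replicates 1, 2 and 3). The question, per the title of the series, was how deletion of Trem1 alters gene expression in macrophages as they age. The sources used here do not give age in months, sex, strain, which cells lack the gene, or how the cells were isolated or sorted, and a young Trem1-/- group is not analysed here. Nothing says that the libraries came from separate mice, so each p-value reflects variation among these samples alone, part of which may be technical.

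Heat-shock proteins bind unfolded or newly made proteins and help them fold. HSP70 proteins (Hspa1a, Hspa1b, Hspa8) bind exposed hydrophobic stretches in cycles of ATP hydrolysis, J-domain proteins such as Dnajb1 bring them their clients, and nucleotide exchange factors such as Hsph1 release the client. HSP90 proteins (Hsp90aa1, Hsp90ab1) act later, on kinases and receptors that are nearly folded, while HSP60 and HSP10 (Hspd1, Hspe1) form the folding chamber of mitochondria. HSF1 is held inactive by chaperones; unfolded protein draws them away, and HSF1 trimers then bind arrays of GAA and TTC units upstream of chaperone genes. Cells handled outside the body, macrophages among them, are known to induce these genes readily.

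Each library held 2663744 to 5603498 reads. Values are the authors' normalized counts, given as mean ± SD over libraries, and log2 fold changes are from limma on log2(normalized count + 1), with their standard error (SE); a gene is called where the adjusted p is under 0.05. The 16 macrophage markers were read in all groups, with summed levels of 97498 to 103435 normalized counts in young wild type, 32790 to 52556 in aged wild type and 89224 to 107671 where labelled Trem1-/-, so the labelled cell type was present throughout. Trem1 itself had 8.0 to 24.4 normalized counts in young and 15.3 to 64.0 in aged wild type, and 23.5, 105.8 and 13.8 in replicates 1, 2 and 3 labelled Trem1-/-. A sum over all exons does not check a partial deletion, and the highest Trem1 value of all 10 libraries was in replicate 2 of that group, so the genotype is used as labelled. The makeup of the aged wild-type libraries differed: 8.38% to 12.9% of reads were from the noncoding RNA Gm26917 and 3.17% to 5.26% from mitochondrial genes, where the other 7 libraries had 5.0% to 5.70% and 1.19% to 2.39%. Rescaling without these genes moved the median log2 fold change of all genes by 0.18 for aged against young wild type and by -0.21 for the libraries labelled Trem1-/- against aged wild type.

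The chaperones varied in 2 ways. Hspa1a and Hspa1b, the stress-inducible HSP70 genes, were several-fold lower in aged wild type than in young wild type, and Hsf1 was higher there, while the other 7 members did not pass the test between those groups. Among the libraries labelled Trem1-/-, each of the 9 chaperones was lowest in replicate 1. Replicate 2 was highest and replicate 3 between them for 8 of the 9, and for Dnajb1 replicate 3 was highest. Such ranks were not counted over all genes. Replicates 2 and 3 lay within the young range for Hspa1a, and replicate 1 lay below every young library for Hspa1a, Hspa1b, Dnajb1 and Hspe1. Hsf1 was nearly equal in those 3 libraries.

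**Figure D1:**
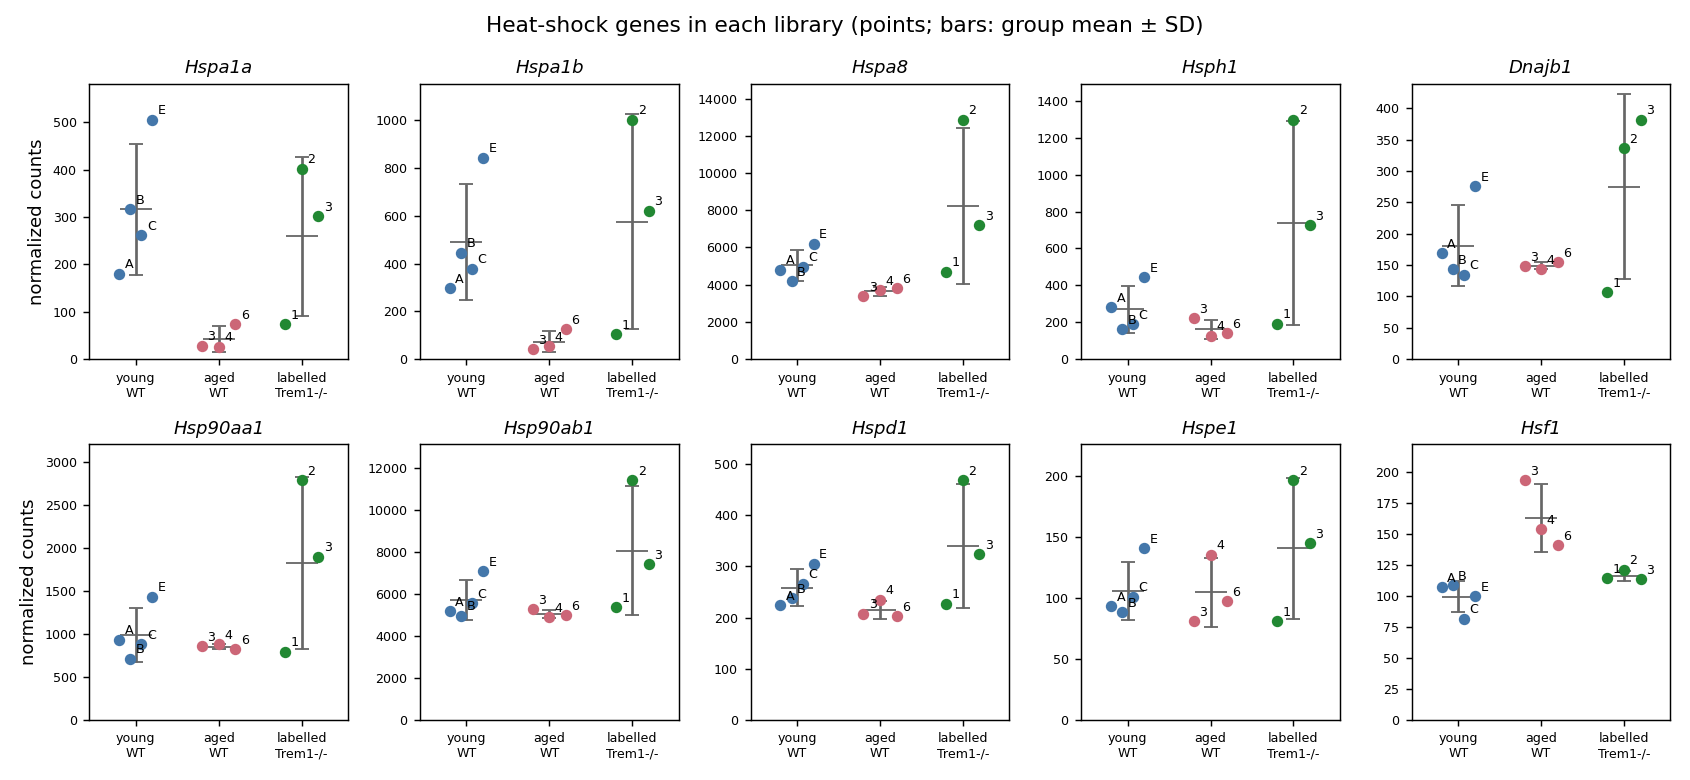
Normalized counts (linear axis; Hspa1a, Hspa1b, Hspa8, Hsph1, Dnajb1, Hsp90aa1, Hsp90ab1, Hspd1, Hspe1 and Hsf1 in separate panels) in each of the 10 libraries, as points with the replicate name, by group, with the group mean ± SD as grey bars. Aged wild-type values of Hspa1a and Hspa1b lie below all young values. In the group labelled Trem1-/- the bars of the chaperones are wide. Replicate 1 is its lowest library for each chaperone, and replicate 2 its highest for each but Dnajb1, where replicate 3 is highest.

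Levels were compared between genes as mean normalized counts per kilobase of exon. In young wild type Hsp90ab1, the constitutive cytosolic HSP90, stood at 1897 and Hspa8, the constitutive HSC70, at 1172, far above the others. Hsp90aa1, the inducible HSP90, followed at 251.4, Hspa1b at 175 and Hspa1a at 106. Below these came Hspd1 at 97.9, Hspe1 at 71.7, Dnajb1 at 56.4, Hsph1 at 37.1 and Hsf1 at 14.0. In aged wild type the same scale gave 1681 for Hsp90ab1, 845 for Hspa8 and 216 for Hsp90aa1, but 26.0 for Hspa1b and 14.4 for Hspa1a, the lowest of the 10. In the libraries labelled Trem1-/- Hspa1b stood at 205 and Hspa1a at 87.3. Neighbours in the young order whose replicate ranges overlapped included Hspa1a with Hspd1 and with Hspa1b.

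Hspa1a and Hspa1b are neighbouring genes on GRCm38 chromosome 17 (ENSMUSG00000091971.3, 34969190 to 34972156, and ENSMUSG00000090877.3, 34956436 to 34959238, both on the minus strand and both protein coding). They encode nearly the same inducible HSP70 protein. Of the 50-base stretches of their transcripts, 66.3% in Hspa1a and 62.3% in Hspa1b also occur in another gene, mostly in each other, and an exon of Hspa1a overlaps Gm20481 on the opposite strand. The sources used here do not say how such reads were shared between the copies, so the split between the 2 genes is uncertain and their sum is given as well. The 250 bases before their starts are shown because the copies share their regulatory sequence as well as their coding sequence: they differ at 3 of these positions. They lie in no annotated gene, are printed 5′ to 3′ on the minus strand from RefSeq on GRCm38 (Hspa1a chr17:34972157-34972406, Hspa1b chr17:34959239-34959488), and the capitals mark the match to GAANNTTC, a head-to-head pair of the units that HSF1 binds.
Hspa1a: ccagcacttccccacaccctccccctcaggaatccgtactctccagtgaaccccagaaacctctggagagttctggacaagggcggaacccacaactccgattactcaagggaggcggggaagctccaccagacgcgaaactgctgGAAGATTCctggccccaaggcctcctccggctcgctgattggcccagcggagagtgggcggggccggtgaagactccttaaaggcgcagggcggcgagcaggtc
Hspa1b: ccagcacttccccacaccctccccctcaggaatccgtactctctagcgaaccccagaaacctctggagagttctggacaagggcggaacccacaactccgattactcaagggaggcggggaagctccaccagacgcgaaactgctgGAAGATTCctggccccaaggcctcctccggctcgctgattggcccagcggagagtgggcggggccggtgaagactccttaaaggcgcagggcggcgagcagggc
In both, the match lies 104 to 97 bases before the start.

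Hspa1a had 180.4, 315.9, 261.8 and 505.6 normalized counts in young replicates A, B, C and E, and 28.2, 26.2 and 73.7 in replicates 3, 4 and 6 of aged wild type. In replicates 1, 2 and 3 labelled Trem1-/- it had 73.6, 401.4 and 301.7. The aged wild-type values lay below all young values, by a wide margin in replicates 3 and 4; replicate 1 labelled Trem1-/- lay just under aged wild-type replicate 6, and the other libraries of its group lay within the young range. These values came from as few as 22 reads (aged wild-type replicate 3) and as many as 513 (young replicate B). Hspa1a fell in aged wild type (log2 fold change -2.92 ± 0.55 SE, limma adjusted p = 0.00217), from 315.9 ± 138.1 (SD, n = 4) to 42.7 ± 26.9 (n = 3).

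Hspa1b ran in parallel. It had 296.3, 445.2, 378.3 and 842.6 normalized counts in young replicates A, B, C and E, 41.0, 53.5 and 124.0 in replicates 3, 4 and 6 of aged wild type, and 103.2, 1003 and 621.7 in replicates 1, 2 and 3 labelled Trem1-/-. Young and aged wild type again did not overlap, and replicate 1 labelled Trem1-/- again fell inside the aged wild-type range. Hspa1b fell in aged wild type (-2.78 ± 0.66, limma adjusted p = 0.00757), from 490.6 ± 242.4 to 72.8 ± 44.8. Its share of the reads of the pair was 58.4% to 71.4% over the 10 libraries, lowest in replicate 1 and highest in replicate 2 labelled Trem1-/-.

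The sum of the pair does not depend on how reads were split between the copies. It does depend on whether shared reads were dropped, or counted for both copies, which the sources used here do not say. It was 806.5 ± 379.4 normalized counts in young wild type, 115.5 ± 71.4 in aged wild type and 834.9 ± 618.6 in the libraries labelled Trem1-/-. The aged wild-type mean was 0.143 times the young one (exact two-sided permutation p = 0.0571, the smallest that 4 against 3 libraries allow). The mean of the libraries labelled Trem1-/- was 7.23 times that of aged wild type (exact two-sided permutation p = 0.2, where 0.1 is the smallest possible) and 1.04 times that of young wild type (exact two-sided permutation p = 0.971).

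Of the 10 members, 2 fell and 1 rose in aged against young wild type; over all 11506 genes tested, 19% fell and 14.3% rose, so the shares among the members (20% and 10%) were near those of all genes. The members' median log2 fold change was -0.24, against -0.02 over all genes tested. The sizes set the pair apart from the other members: Hspa1a and Hspa1b had log2 fold changes of -2.92 and -2.78, and no other member was below -0.66. Of the calls over all genes, 42.9% were higher in aged wild type, and 64.9% after rescaling without Gm26917 and mitochondrial genes; with that rescaling the log2 fold changes of Hspa1a, Hspa1b and Hsf1 were -2.74, -2.60 and 0.88. The calls of these 3 genes held without each library in turn, with log2 fold changes of -3.39 to -2.66 for Hspa1a, -3.25 to -2.46 for Hspa1b and 0.57 to 0.80 for Hsf1. The authors' deposited table of the same comparison also called these 3 members alone among the 10, with log2 fold changes of -2.88, -2.75 and 0.69.

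Other features moved with the same groups. In aged wild type 12 of 16 macrophage markers were lower (median log2 fold change -1.16), 14 of 15 B cell markers and 11 of 11 tested T and NK cell markers were higher, and summed B cell markers were 16199 to 25221 normalized counts against 3243 to 6653 in young wild type. Of the erythroid markers 5 of 6 tested were higher (median 4.10; aged replicate 4 had a sum of 23865, replicates 3 and 6 had 538 and 477), of the mesothelial and fibroblast markers 2 of 8 were higher (median 2.68; sums of 674 to 742 against 12.3 to 532), and of the dendritic cell markers 4 of 6 were lower (median -1.10). Of the eosinophil markers 1 of 2 was higher, and no mast cell or neutrophil marker passed the test (7 and 1 tested). Fewer macrophages and less RNA per cell cannot be told apart in bulk samples, and the part of these cells in the levels of Hspa1a and Hspa1b was not tested. Immediate-early genes, like these chaperones, are induced within minutes of handling. Their summed level was 30699, 10800 and 21950 normalized counts in replicates 3, 4 and 6 of aged wild type against 12118 to 18386 in young wild type. Aged wild-type replicate 4 thus lay below every young library. Among the 25 tested, 6 rose in aged wild type and none fell, against 14.3% higher and 19% lower over all genes tested. The part of handling in these levels was not tested.

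**Figure D2:**
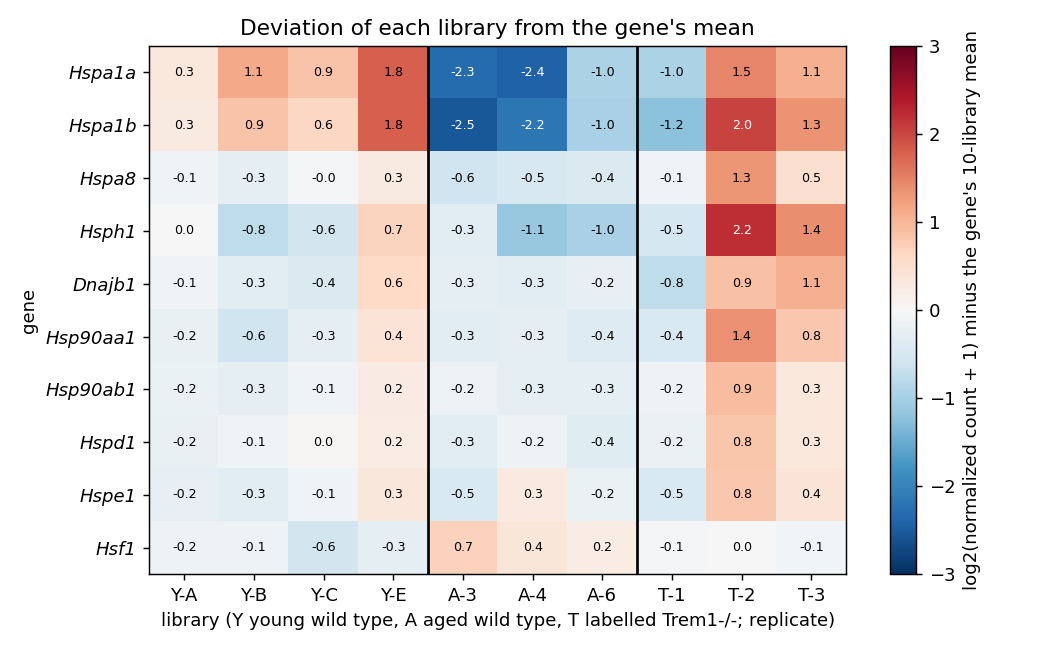
Deviation of log2(normalized count + 1) from the mean of the same gene over the 10 libraries (colour scale, log2 units, also printed in each cell), for the 10 genes (rows) in each library (columns, Y young wild type, A aged wild type, T labelled Trem1-/-). Hspa1a and Hspa1b are low in the aged wild-type columns and in T-1, the 9 chaperones are above their means in T-2, T-3 and Y-E, and Hsf1 is high in the aged wild-type columns.

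Hsf1 (ENSMUSG00000022556.11, chromosome 15, 76477422 to 76501913, plus strand, protein coding) shares no 50-base stretch and no exon with another gene. It had 107.2, 108.4, 81.7 and 99.9 normalized counts in young replicates A, B, C and E, 193.3, 153.9 and 141.0 in replicates 3, 4 and 6 of aged wild type, and 114.4, 121.0 and 113.6 in replicates 1, 2 and 3 labelled Trem1-/-. The 3 groups did not overlap: young was lowest, the libraries labelled Trem1-/- were just above it, and aged wild type was highest. Hsf1 rose in aged wild type (0.70 ± 0.14, limma adjusted p = 0.00336), from 99.3 ± 12.3 to 162.7 ± 27.2. The libraries labelled Trem1-/- stood at 116.3 ± 4.05, with a log2 fold change of -0.47 ± 0.15 against aged wild type that did not pass the test (limma adjusted p = 0.0545) and one of 0.23 ± 0.14 against young wild type (limma adjusted p = 0.502). The level of an mRNA does not show how much HSF1 protein is active.

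Hspa8 (ENSMUSG00000015656.17, chromosome 9, 40800984 to 40810087, plus strand) encodes HSC70, the constitutive HSP70 of folding, clathrin uncoating and chaperone-mediated autophagy. It had 4803, 4177, 4973 and 6203 normalized counts in young replicates A, B, C and E, 3382, 3701 and 3818 in replicates 3, 4 and 6 of aged wild type, and 4689, 12880 and 7196 in replicates 1, 2 and 3 labelled Trem1-/-. Aged wild type lay below every other library, by a small margin, and replicate 2 labelled Trem1-/- had the highest value. The difference between aged and young wild type did not pass the test (-0.46 ± 0.26, limma adjusted p = 0.205); with those 7 libraries fitted alone it did (limma adjusted p = 0.0344, the same fold change). In Hspa8, 39.4% of 50-base stretches occur in other genes, mostly unnamed loci such as Gm15459 and Gm26825, and 3 small nucleolar RNA genes lie within its exons.

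Hsph1 (ENSMUSG00000029657.15, chromosome 5, 149614287 to 149636376, minus strand) encodes HSP105, an HSP110 protein that releases nucleotide from HSP70. It shares no 50-base stretch with another gene. A run of 3 HSF1 units lies in its first exon, 15 to 27 bases after a RefSeq start (chr5:149636280-149636308 on GRCm38, minus strand, 5′ to 3′). It is shown with its flanks because few promoter windows hold such a run; the capitals mark the match to TTCNNGAANNTTC.
Hsph1: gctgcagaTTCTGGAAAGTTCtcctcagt
Hsph1 had 281.5, 163.2, 188.5 and 445.1 normalized counts in young replicates A, B, C and E, 220.1, 125.5 and 140.2 in replicates 3, 4 and 6 of aged wild type, and 191.1, 1299 and 726.1 in replicates 1, 2 and 3 labelled Trem1-/-. The wild-type groups overlapped, and replicates 2 and 3 labelled Trem1-/- were above every other library. The log2 fold change between aged and young wild type was -0.66 ± 0.54 (limma adjusted p = 0.373).

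Dnajb1 (ENSMUSG00000005483.10, chromosome 8, 83608193 to 83612653, plus strand) encodes HSP40, the inducible J-domain partner of HSP70. It had 169.1, 143.5, 134.5 and 275.4 normalized counts in young replicates A, B, C and E, 148.5, 143.0 and 154.5 in replicates 3, 4 and 6 of aged wild type, and 106.3, 336.5 and 382.0 in replicates 1, 2 and 3 labelled Trem1-/-. Replicate 3, not replicate 2, was the highest here, and replicate 1 of the same group was the lowest of all 10 libraries. Aged and young wild type overlapped (-0.22 ± 0.38, limma adjusted p = 0.691).

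Hsp90aa1 (ENSMUSG00000021270.13, chromosome 12, 110690605 to 110702728, minus strand) encodes the inducible cytosolic HSP90. It had 929.9, 711.8, 877.9 and 1434 normalized counts in young replicates A, B, C and E, 855.0, 876.3 and 820.2 in replicates 3, 4 and 6 of aged wild type, and 791.8, 2787 and 1897 in replicates 1, 2 and 3 labelled Trem1-/-. Aged wild-type values were close to each other and inside the young range (-0.17 ± 0.35, limma adjusted p = 0.742). In Hsp90aa1, 47.5% of 50-base stretches occur in other genes, chiefly in Gm12346 and Gm5844.

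Hsp90ab1 (ENSMUSG00000023944.14, chromosome 17, 45567775 to 45573271, minus strand) encodes the constitutive HSP90 and lies 2.66 megabases from Trem1; Hspa1a lies 13.3 megabases from it. It had 5166, 4958, 5559 and 7078 normalized counts in young replicates A, B, C and E, 5255, 4885 and 4982 in replicates 3, 4 and 6 of aged wild type, and 5360, 11397 and 7410 in replicates 1, 2 and 3 labelled Trem1-/-. The wild-type groups overlapped (-0.16 ± 0.21, limma adjusted p = 0.596), while all 3 libraries labelled Trem1-/- lay above all aged wild-type ones, replicate 1 by less than the spread among the latter.

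Hspd1 (ENSMUSG00000025980.14, chromosome 1, 55077835 to 55088243, minus strand) and Hspe1 (ENSMUSG00000073676.4, chromosome 1, 55088132 to 55091307, plus strand) encode HSP60 and HSP10, the ring and the lid of the mitochondrial folding chamber, and are read outwards from a shared region with overlapping exons. That region holds 2 overlapping runs of HSF1 units in 18 bases, at chr1:55088059-55088076 on GRCm38, 89 to 72 bases before the RefSeq start of Hspe1 and 144 to 127 bases before 1 of 2 starts of Hspd1 in the same table, inside an exon annotated to Hspd1. The same 30 bases (chr1:55088053-55088082) are printed 5′ to 3′ on the strand of each gene to show that both genes face 1 element; capitals mark the 18 bases.
Hspe1: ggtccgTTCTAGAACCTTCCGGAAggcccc
Hspd1: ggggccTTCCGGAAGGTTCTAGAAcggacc
Hspd1 had 224.0, 238.3, 266.6 and 305.7 normalized counts in young replicates A, B, C and E, 207.3, 234.6 and 203.0 in replicates 3, 4 and 6 of aged wild type, and 226.8, 468.7 and 323.5 in replicates 1, 2 and 3 labelled Trem1-/-. Hspe1 had 93.3, 88.1, 100.9 and 140.6 normalized counts in young replicates A, B, C and E, 80.6, 135.3 and 97.0 in replicates 3, 4 and 6 of aged wild type, and 80.7, 196.3 and 144.5 in replicates 1, 2 and 3 labelled Trem1-/-. In both genes replicate 2 labelled Trem1-/- was the highest and the wild-type groups overlapped (-0.26 ± 0.20 with limma adjusted p = 0.359 for Hspd1, and -0.03 ± 0.28 with limma adjusted p = 0.951 for Hspe1). For Hspd1, 42.1% of 50-base stretches occur elsewhere, chiefly in the pseudogene Hspd1-ps3, and for Hspe1 22.8%.

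Promoter windows of 300 bases from the RefSeq table (GRCm38.p6, 250 bases before and 50 after a start) were matched by symbol for 6 members, in 9 windows; Hspa8, Hsp90aa1, Hsp90ab1 and Hsf1 were not matched. A pair of units (GAANNTTC or TTCNNGAA, each of which reads the same on both strands) was in 6 of the 9 windows, of 5 members, and in 15.1% of all 32851 windows. A run of 3 units (GAANNTTCNNGAA or TTCNNGAANNTTC, each the reverse complement of the other) was in 4 of the 9 windows, of Hspd1, Hspe1 and Hsph1, and in 0.603% of all windows. Every run of 3 contains pairs. These windows are not independent: those of Hspa1a and Hspa1b are 98.7% identical, those of Hspd1 and Hspe1 that hold a match share 285 bases, and those of Hsph1 overlap. Dnajb1 had neither in its 2 windows, which says only that these letters are not there.

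The libraries labelled Trem1-/- were compared with aged wild type to ask how the deletion alters aged macrophages. Of the 10 members 4 rose and none fell, against 11.5% higher and 6.82% lower over all genes tested. Hspa1b rose by 2.61 ± 0.71 on the log2 scale (limma adjusted p = 0.0264), Hspa1a by 2.42 ± 0.59 (limma adjusted p = 0.0173), Hsph1 by 1.84 ± 0.58 (limma adjusted p = 0.0458) and Hspa8 by 1.06 ± 0.28 (limma adjusted p = 0.025). The group means were 259 ± 168 normalized counts for Hspa1a, 576 ± 452 for Hspa1b, 739 ± 554 for Hsph1 and 8255 ± 4197 for Hspa8, so the spread was large against the mean in each. The values of Hspa1a, Hspa1b and Hsph1 overlapped between the groups because of replicate 1, and those of Hspa8 did not. The other members did not pass, with log2 fold changes of 0.92 ± 0.37 for Hsp90aa1 (limma adjusted p = 0.104), 0.68 ± 0.41 for Dnajb1, 0.61 ± 0.23 for Hsp90ab1, 0.60 ± 0.22 for Hspd1, 0.37 ± 0.30 for Hspe1 and -0.47 ± 0.15 for Hsf1. The members' median was 0.80, against 0.02 over all genes tested. In the same comparison 10 of 16 macrophage markers rose, while 7 of 15 B cell, 8 of 11 tested T and NK cell, 5 of 6 erythroid, 1 of 8 mesothelial and fibroblast and 1 of 2 eosinophil markers fell and 2 of 6 dendritic cell markers rose; the part of these cells in the members' levels was not tested.

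**Figure D3:**
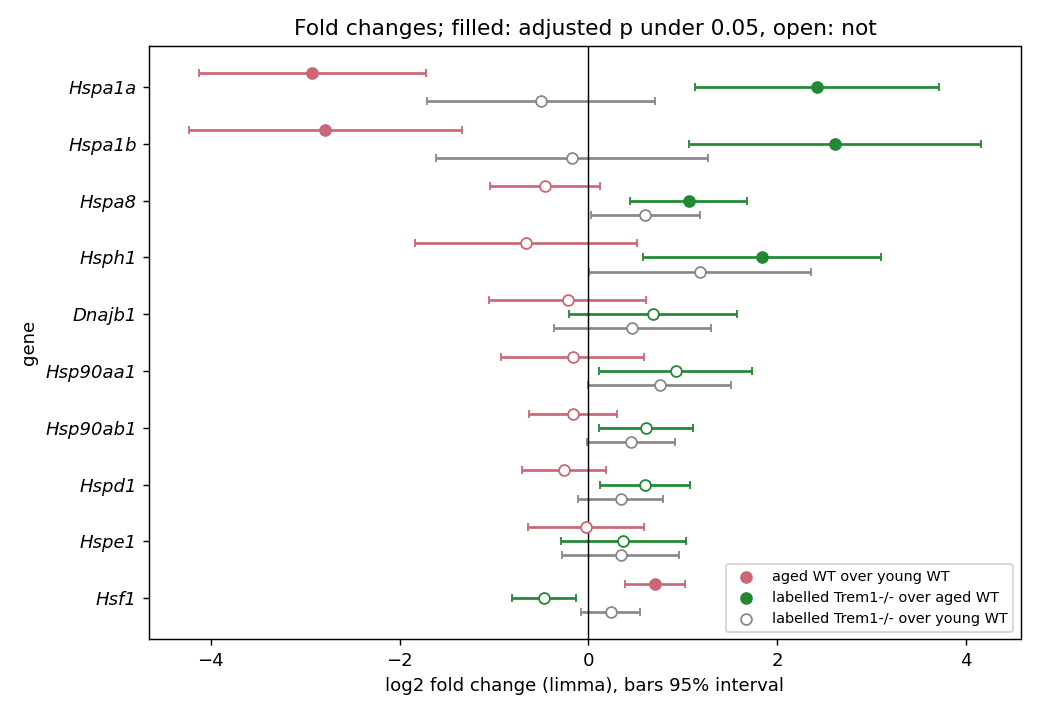
Log2 fold changes from limma (points) with their 95% intervals (bars) for the 10 genes in 3 comparisons, filled where the adjusted p was under 0.05 and open where it was not. Hspa1a, Hspa1b and Hsf1 are filled for aged over young wild type, Hspa1b, Hspa1a, Hsph1 and Hspa8 for the libraries labelled Trem1-/- over aged wild type, and none for the libraries labelled Trem1-/- over young wild type.

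These 4 calls rested on single libraries. Without replicate 2 labelled Trem1-/- no member was called (limma; 5 had an unadjusted p under 0.05), with log2 fold changes of 1.95 for both Hspa1a and Hspa1b, 1.24 for Hsph1 and 0.68 for Hspa8. Without replicate 3 Hspa8 alone was called (limma adjusted p = 0.0493), and without replicate 1 the count was 8, adding Dnajb1, Hsp90aa1, Hsp90ab1 and Hspd1. Calls over all genes tested also became fewer, from 11.5% higher and 6.82% lower to 6.75% and 2.88% without replicate 2. They were 9.51% and 5.5% without replicate 3, and 7.56% and 3.74% without replicate 1, where 8 members were called. On the other side, no member was called by limma without aged wild-type replicate 3 (6 had an unadjusted p under 0.05). Over all genes 6.68% were then higher and 2.76% lower. Without aged wild-type replicate 6 the calls were Hspa1a and Hspa1b, against 7.39% higher and 3.04% lower over all genes. Hsph1 was also lost without young replicate A, B or C or aged wild-type replicate 4 (limma adjusted p of 0.0525 to 0.0791); without young replicate C Hsf1 was called lower. With only the 6 libraries of the 2 groups in the limma fit no member passed, although the fold changes were the same. In that fit 8 members had an unadjusted p under 0.05, and over all genes 6.24% were called higher and 3.88% lower. The share of all genes with an unadjusted p under 0.05 was not counted in any of these fits. DESeq2 on the recovered reads called 7 members higher, adding Hsp90aa1, Hsp90ab1 and Hspd1, and edgeR called the same 4 higher and Hsf1 lower. Over all genes DESeq2 called 9.42% higher and 6.55% lower, and edgeR 9.86% and 8.26%. After rescaling without Gm26917 and mitochondrial genes, which took the share of calls over all genes that were higher from 62.8% to 29.4%, Hsph1 was lost (limma adjusted p = 0.0567) and Hsf1 was called lower.

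**Figure D4:**
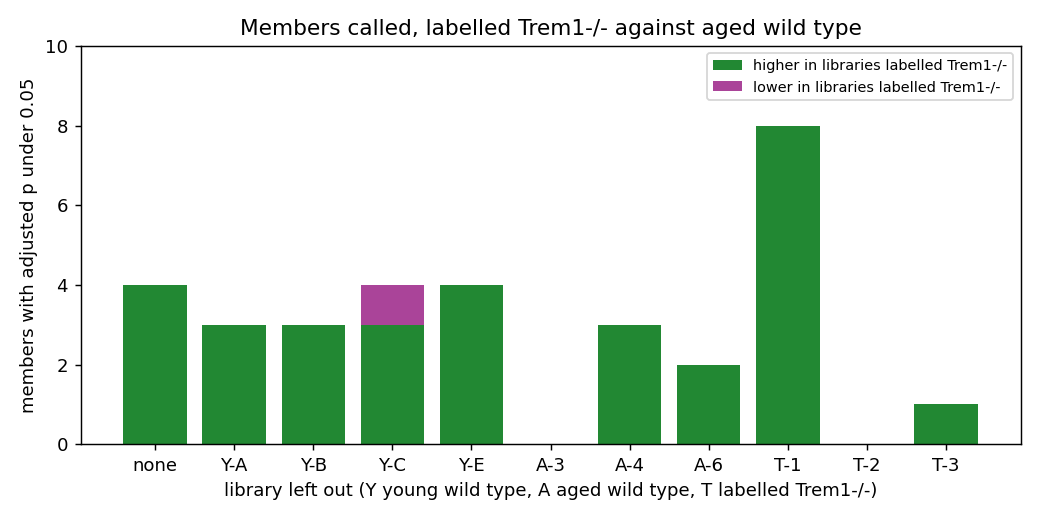
Number of the 10 genes with a limma adjusted p under 0.05, of the libraries labelled Trem1-/- against aged wild type (vertical axis), with no library or 1 library left out (horizontal axis); green is higher and purple lower in the libraries labelled Trem1-/-. The count is 4 with none left out, 0 without A-3 or T-2, and 8 without T-1. Over all genes tested, 11.5% were called higher with none left out, and 6.68%, 6.75% and 7.56% without A-3, T-2 and T-1.

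Against young wild type, the libraries labelled Trem1-/- had no member called, while 0.591% of all genes were higher and 0.33% lower (64.2% of these calls higher, 47.9% after rescaling without Gm26917 and mitochondrial genes). With limma 2 members had an unadjusted p under 0.05, Hspa8 (0.60 ± 0.26) and Hsph1 (1.18 ± 0.54), and neither edgeR nor DESeq2 called any (4 had an unadjusted p under 0.05 with each). The share of all genes at that unadjusted threshold was not counted, so nothing is concluded from these counts. The intervals were wide: -1.71 to 0.70 for Hspa1a and -1.62 to 1.27 for Hspa1b on the log2 scale, so these data do not show whether the level of the pair differed from the young one. This comparison shares libraries with each of the other 2.

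Within groups, the spread of the chaperones was large in the group labelled Trem1-/-. The highest of the 3 libraries labelled Trem1-/- was at least 2-fold above the lowest for 9 of the 10 members, which was so for 14.1% of all genes tested; in the young group it was so for 5 members (16% of genes) and in aged wild type for 2, Hspa1a and Hspa1b (18.6% of genes). The SD of Hspa1b on the log2 scale was 1.72 in the group labelled Trem1-/-, rank 75 from the largest of 11506 genes, where the median gene had 0.21. It was 1.41 for Hsph1, 1.30 for Hspa1a, 1.01 for Dnajb1, 0.93 for Hsp90aa1 and 0.049 for Hsf1. In aged wild type Hsp90aa1, Hsp90ab1 and Dnajb1 had SDs of 0.048, 0.055 and 0.056, against a median gene of 0.25, while Hspa1a, Hspa1b, Hsph1 and Hspe1 had larger SDs than that gene (0.81, 0.82, 0.43 and 0.37).

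The same libraries were high for nearly all chaperones. Replicate 2 labelled Trem1-/- had the highest value of all 10 libraries for 7 members, and replicate 1 had the lowest value of its group for 9. Replicate 2 exceeded replicate 1 by 9.72-fold for Hspa1b, 6.80-fold for Hsph1, 5.46-fold for Hspa1a, 3.52-fold for Hsp90aa1, 3.17-fold for Dnajb1, 2.75-fold for Hspa8, 2.43-fold for Hspe1, 2.13-fold for Hsp90ab1 and 2.07-fold for Hspd1, but by 1.06-fold for Hsf1. Young replicate E was the highest of its group for 9 members. How often each library was highest or lowest over all genes tested was not counted. These ranks therefore do not show whether the pattern is particular to the chaperones. The 10 members together took 0.833% of the reads of replicate 2, 0.531% of replicate 3 and 0.476% of young replicate E, against 0.299% to 0.363% of the other 7 libraries.

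Over the 10 libraries the 36 pairs of chaperones had Pearson correlations of log2 levels from 0.44 to 0.99, with a median of 0.81, as a description of 10 points that share these few high libraries. The highest was between Hspa1a and Hspa1b, which share reads, and the lowest between Hspa1a and Hspe1. Hspa8, Hsp90ab1 and Hspd1, from 3 protein families and 3 chromosomes, had correlations of 0.96 to 0.97 with each other. Hsf1 had -0.79 with Hspa1a and -0.73 with Hspa1b, and -0.38 to -0.13 with the other 7, with a median of -0.20 over the 9.

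Other values differed between the same libraries or did not. Replicates 1, 2 and 3 labelled Trem1-/- had 3471464, 4628187 and 3138568 reads and macrophage markers that summed to 95202, 107671 and 89224 normalized counts. Lyz2 and Prg4 made up most of that sum, which does not show how other markers varied. In replicates 1, 2 and 3 Adgre1 had 4693, 4788 and 4227 normalized counts, and Marco had 880, 342 and 1418. Immediate-early genes summed to 14014, 34077 and 16764, and mast cell markers to 420, 1988 and 437. Both sums were highest in replicate 2 and lowest in replicate 1, with replicate 3 nearer to replicate 1. Single immediate-early genes varied in replicate 3: in replicates 1, 2 and 3 Fos had 585, 3651 and 1105 normalized counts, and Egr1 330, 1426 and 284. Mesothelial and fibroblast markers summed to 22.5, 528 and 125. In young replicate C mast cell and mesothelial markers were also high (1433 and 532), and none of the 10 members had its highest young value there. Hspa8, Hsp90ab1, Hspd1 and Hspe1 were higher there than in young replicates A and B, and the other members were not. In young replicate E, where 9 members were highest in their group, mast cell and mesothelial markers summed to 242 and 32.5. Immediate-early genes summed to 18386 there, against 12118 to 17026 in the other young libraries. The part of these cells and genes in the members' levels was not tested. The sources used here do not give the handling or time before lysis of each library.

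The genes most like 3 of the members over the 10 libraries were named by Pearson correlation among 11496 genes outside the 10. For Hsp90aa1 they were Ptges3 (0.97), which encodes the HSP90 cochaperone p23, Stip1 (0.96), which encodes the HOP adaptor between HSP70 and HSP90, and Dnaja1 (0.94), a J-domain partner of HSC70. For Hspd1 they were Stip1 (0.98), Ubqln1 (0.98), a ubiquitin-binding shuttle to the proteasome, and Fkbp4 (0.96), an immunophilin of HSP90 complexes. Without the 2 libraries farthest from the median, replicates 2 and 3 labelled Trem1-/-, these fell to 0.84, 0.84 and 0.77 for Hsp90aa1 and 0.92, 0.91 and 0.95 for Hspd1. For the sum of Hspa1a and Hspa1b they included Lix1l (0.95) and Hibch (0.95), a valine catabolism enzyme, with 0.92 and 0.88 without aged wild-type replicates 3 and 4. Stip1 showed the shape plainly: it had 231.5 to 401.0 normalized counts in young wild type, highest in replicate E, 191, 249 and 196 in replicates 3, 4 and 6 of aged wild type, and 245, 775 and 435 in replicates 1, 2 and 3 labelled Trem1-/-. Its log2 fold change against aged wild type was 1.05 ± 0.34 and did not pass (limma adjusted p = 0.0515).

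**Figure D5:**
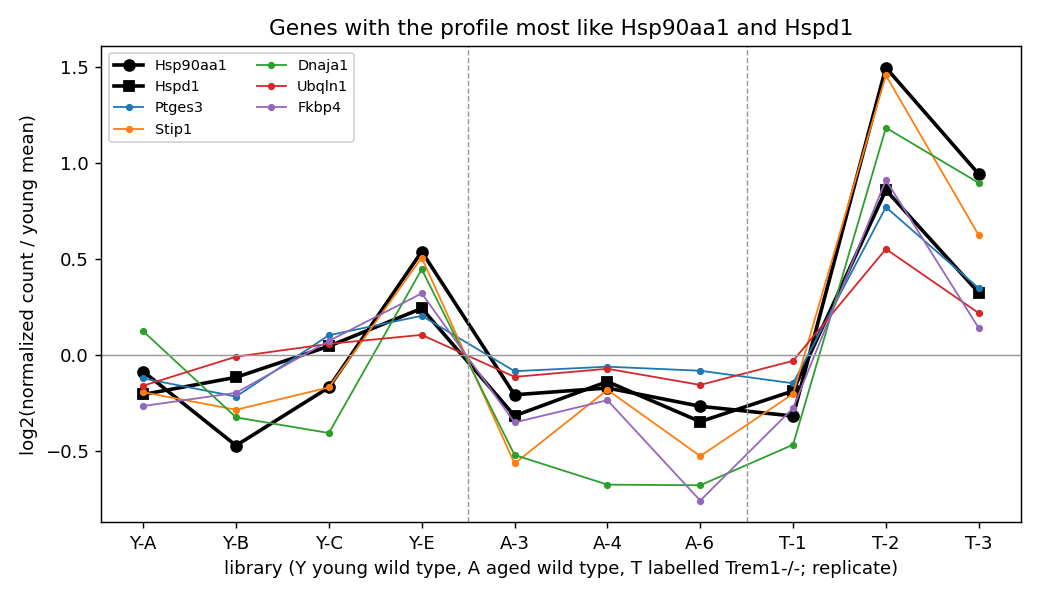
Log2 ratio of the normalized count in each library (horizontal axis, Y young wild type, A aged wild type, T labelled Trem1-/-) to the young mean, for Hsp90aa1 and Hspd1 (black) and for Ptges3, Stip1, Dnaja1, Ubqln1 and Fkbp4 (colours), named by their correlation with these 2. All 7 lines peak at T-2, are above the young mean at Y-E and T-3, and are below it at T-1.

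The rest of the chaperone network was read from 8 lists of 127 genes, of which 103 were tested. In aged against young wild type 9 rose and 21 fell, with a median log2 fold change of -0.18; in the libraries labelled Trem1-/- against aged wild type 19 rose and 4 fell, with a median of 0.16; against young wild type none was called by limma, edgeR or DESeq2 (10 had an unadjusted p under 0.05 with limma, and 14 with each of edgeR and DESeq2). The shares that fell with age (20.4%) and rose in the libraries labelled Trem1-/- (18.4%) can be set beside 19% and 11.5% of all genes. In the other direction, 14.3% of all genes rose with age and 6.82% fell in the libraries labelled Trem1-/-. The counts of each list below are to be read beside these shares. How many of all genes had an unadjusted p under 0.05 was not counted. After rescaling without Gm26917 and mitochondrial genes the splits were 11 higher and 9 lower with age, and 8 higher and 10 lower in the libraries labelled Trem1-/-. That rescaling also ended, among the genes named below, the calls with age of Hspa12a, Dnajc28, Sil1, St13, Clpb and Hsbp1, and those in the libraries labelled Trem1-/- of Dnaja1, Sil1, Chordc1, Hsp90b1, Sugt1 and Cct4. The counts with age were 17 without aged wild-type replicate 3 and 19 without replicate 6. For the libraries labelled Trem1-/- they were 6 and 9 without these, and 9 without replicate 2 labelled Trem1-/-. Over all genes the shares higher and lower in those 3 fits were 6.68% and 2.76%, 7.39% and 3.04%, and 6.75% and 2.88%. With age they were 10.2% and 13.9% without aged wild-type replicate 3, and 10.1% and 14.3% without replicate 6.

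Among partners of HSP70, Bag3, the stress-induced exchange factor of selective autophagy, followed Hspa1a and Hspa1b in direction. It fell from 178.4 ± 37.9 normalized counts in young to 81.5 ± 22.2 in aged wild type (-1.14 ± 0.25, limma adjusted p = 0.00466) and stood at 231.3 ± 78.2 in the libraries labelled Trem1-/- (1.48 ± 0.26, limma adjusted p = 0.00469). Both calls held without each library in turn, and its 3 values labelled Trem1-/-, 164.5, 317.3 and 212.2, were all above the aged wild-type values of 57.6, 101.5 and 85.3. Sil1, the exchange factor of the endoplasmic reticulum, fell with age (-0.52), a call that held without each library in turn, and rose in the libraries labelled Trem1-/- (0.49), which did not hold when aged wild-type replicate 3 or any 1 of the libraries labelled Trem1-/- was left out (highest limma adjusted p 0.0858). St13, the HSP70-interacting protein HIP, fell with age (-0.49; lost when young replicate E or replicate 3 or 6 of aged wild type was left out, highest limma adjusted p 0.105) and rose in the libraries labelled Trem1-/- (0.71; lost without aged wild-type replicate 3, limma adjusted p 0.0508). In all 4 of 11 tested genes of this list fell with age and 3 rose in the libraries labelled Trem1-/-.

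Of 9 other HSP70 and HSP110 genes tested, 3 fell with age and 4 rose in the libraries labelled Trem1-/-. Hspa4l, an HSP110 protein, fell by 0.94 on the log2 scale with age, a call that held without each library in turn. It was also called higher in the libraries labelled Trem1-/- (1.08, limma adjusted p = 0.00866), a call not followed with single libraries left out. Hspa13, a microsomal HSP70, fell with age (-0.81; lost without aged wild-type replicate 3 or 6, highest limma adjusted p 0.0674) and rose in the libraries labelled Trem1-/- (1.18, held without each library in turn). Hspa12a, a distant HSP70 relative, fell with age (-0.73) and rose in the libraries labelled Trem1-/- (1.097). The first call was lost without any 1 of the young libraries or without aged wild-type replicate 3 or 6 (highest limma adjusted p 0.154), and the second without those 2 aged libraries or without replicate 2 labelled Trem1-/- (highest limma adjusted p 0.0559). Hspa5, the HSP70 of the endoplasmic reticulum known as BiP, rose in the libraries labelled Trem1-/- (1.12; 2415, 5698 and 2427 normalized counts in replicates 1, 2 and 3, against 1489, 1623 and 1345 in aged wild type); it was not called when aged wild-type replicate 3 or 6 was left out (highest limma adjusted p 0.0716).

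Of 37 J-domain genes tested, 5 rose and 7 fell with age, and 8 rose and 3 fell in the libraries labelled Trem1-/-. With age these counts were near the shares over all genes tested, 14.3% higher and 19% lower. Dnaja1 rose there (1.16; 345, 1085 and 889 normalized counts in replicates 1, 2 and 3, against 298.3 to 332.8 in aged wild type), but the call held only without young replicate E or replicate 1 labelled Trem1-/- (highest limma adjusted p 0.145 over the libraries left out). Dnajb9, a J-domain protein of the endoplasmic reticulum, rose there (0.95), also without each library in turn. Dnajc27, also a small GTPase, rose with age (0.86; lost without aged wild-type replicate 6, limma adjusted p 0.0543) and fell in the libraries labelled Trem1-/- (-0.90; lost without aged wild-type replicate 3 or 6 or replicate 1 or 2 labelled Trem1-/-, highest limma adjusted p 0.0838). Dnajb2 rose with age (1.02; lost without aged wild-type replicate 3, limma adjusted p 0.0607). Dnajc28 fell with age (-0.82; lost without young replicate A, B or C or aged wild-type replicate 3, highest limma adjusted p 0.113).

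Of 18 other HSP90 genes and cochaperones tested, 3 rose and 4 fell with age, and 3 rose and 1 fell in the libraries labelled Trem1-/-. Here too the counts with age were near the shares over all genes tested, 14.3% higher and 19% lower. Unc45a, a chaperone of myosin that binds HSP90, rose with age from 74.3 ± 16.0 to 170.1 ± 36.5 normalized counts (1.18 ± 0.19, limma adjusted p = 0.00106), also without each library in turn, while the median of its list was -0.33. Hsp90b1, the HSP90 of the endoplasmic reticulum, fell with age (-0.66), also without each library in turn, and rose in the libraries labelled Trem1-/- (0.68; lost without aged wild-type replicate 3 or 6 or replicate 2 labelled Trem1-/-, highest limma adjusted p 0.079). Tomm34, which hands proteins to mitochondria, rose with age (0.45; lost without aged wild-type replicate 3 or 6, highest limma adjusted p 0.0762). In the libraries labelled Trem1-/- Sugt1 rose (0.57), also without each library in turn, and Chordc1 rose (0.96; lost without aged wild-type replicate 3 or 6 or replicate 2 or 3 labelled Trem1-/-, highest limma adjusted p 0.100).

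In the remaining lists few genes moved. Of 14 tested subunits of the cytosolic chaperonin and of prefoldin, Pfdn1 fell with age (-0.81, held without each library in turn) and Pfdn5 rose (0.43; lost without young replicate A or E, aged wild-type replicate 3 or replicate 1 labelled Trem1-/-, highest limma adjusted p 0.163). Cct4 rose in the libraries labelled Trem1-/- (0.39; lost without aged wild-type replicate 3 or 6 or replicate 2 or 3 labelled Trem1-/-, highest limma adjusted p 0.0943). Of 10 mitochondrial proteases and unfoldases Clpb fell with age (-0.60; lost without any 1 of the young libraries, aged wild-type replicate 3 or replicate 1 labelled Trem1-/-, highest limma adjusted p 0.149), and none was called in the libraries labelled Trem1-/-. Hsbp1, which binds the trimerization domain of HSF1, fell with age (-0.58; lost without young replicate C or E or aged wild-type replicate 6, highest limma adjusted p 0.0990), while Hsf1 rose. Only 2 of 10 small heat-shock protein genes reached the filter, and neither was called; Hspb1, the inducible HSP27, had 14.3, 125.0 and 12.6 normalized counts in replicates 1, 2 and 3 labelled Trem1-/- and 2.61 to 17.4 in the other libraries.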

How the data were processed

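RNA-seq of 10 libraries was analysed. Per the labels' protocols, RNA was extracted with a Qiagen RNeasy kit, cDNA was made with a stranded Takara kit and libraries with an NEBNext Ultra kit. Per the submitters' processing notes, fastp, STAR, featureCounts 1.5.0-p3, DESeq2 1.20.0 and GRCm38 were used; the sources used here do not say whether counting used strand. The deposited values are gene signal from the authors, called normalized counts here: in each library they are whole multiples of 1 value, as counts divided by a size factor are. Dividing by it gave whole reads for 100% of values (within 1e-06), 2663744 to 5603498 per library. The authors' deposited table of aged against young wild type also holds log2 fold changes, test scores and p-values.

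Values were tested as log2(normalized count + 1) with limma 3.58.1 in R 4.3.3 (trend, robust off, all 10 libraries in 1 fit), over the 11506 of 54532 genes with a mean of at least 10, with Benjamini-Hochberg adjustment over these and a threshold of 0.05. Fold changes on this scale understate those of low genes. Alternatives were edgeR 4.0.16 and DESeq2 1.42.0 on recovered reads, other pseudocounts, filters and scalings, fits of 2 groups, a summed Hspa1a and Hspa1b row, and each library left out. The exact permutation test used scipy 1.17.1 in Python 3.11.15. The fit was tested on simulated data. Gene positions and 50-base sharing come from GENCODE M21 (53749 symbols matched). The members, the related gene lists and the marker lists were chosen with earlier results of these data known. Named genes are the 10 members, the genes ranked highest by correlation with 3 of them, and, per comparison, up to 3 genes of each related list that passed the test with the largest changes; Hspb1 and Gm26917 were added after their values were seen. A gene that this rule names is not reported here.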

Additional observations from a re-analysis of the deposited data

How the results depend on the processing

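In aged against young wild type Hspa1a, Hspa1b and Hsf1 kept their calls under all alternatives run. Members called in the libraries labelled Trem1-/- against aged wild type, 4 here, numbered 7 with DESeq2, 0 with the 2 groups fitted alone, and 0 to 8 with 1 library left out. Over all genes in that comparison, 11.5% higher and 6.82% lower became 6.24% and 3.88% with the 2 groups alone. With 1 library left out the shares were 6.68% to 15.6% higher and 2.76% to 8.86% lower. Related genes called there, 23 here, numbered 9 with the 2 groups alone and 6 to 25 with 1 library left out; in aged against young wild type, 30 here, they numbered 17 to 33. Fewer samples enter the fits of 2 groups and those with 1 library left out, while DESeq2 used all 10 libraries. The counts moved both up and down, and the cause was not tested further. Changes of sign were seen only for values that passed no test. In aged against young wild type, rescaling without Gm26917 and mitochondrial genes gave log2 fold changes of 0.0147 for Hsp90aa1, 0.0219 for Hsp90ab1 and 0.15 for Hspe1, edgeR gave 0.0226 for Hspe1, and leaving out 1 library gave -0.34 to 0.0024 for Dnajb1, -0.31 to 0.0268 for Hsp90aa1 and -0.23 to 0.14 for Hspe1. Against young wild type, Hspa1b in the libraries labelled Trem1-/- was 0.23 with edgeR and with DESeq2, and leaving out 1 library gave -0.98 to 0.24 for Hspa1a, -0.83 to 0.80 for Hspa1b, -0.89 to 0.61 for their summed row and -0.55 to 0.53 for the log2 ratio of their summed means. No paired analysis was possible because the groups share a single replicate number, 3. Low read counts of Hspa1a in aged wild type (22 to 82) limit the precision of its fold changes.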
